A study of Mus musculus with 8 samples.

Results

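Heparan sulfate is a long, sulfated sugar chain that is built in the Golgi on core proteins and displayed at the cell surface or in the matrix. The genes described here are 32 genes of that system: the enzymes that polymerise and sulfate the chain, the extracellular sulfatases that trim it, and the 2 main families of cell surface core proteins, the glypicans and the syndecans. They were chosen by name, with earlier results of these data known. Each was matched to the array probe set that carries its symbol alone, and 31 of the 32 were measured among 19938 genes. Ndst1 was not analysed here. Each of the 31 had 1 such probe set.

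Expression was compared in neocortex of mouse pups at postnatal day 2, in which layers II to IV had been cut out with a laser, with 1 Affymetrix Mouse Gene 1.0 ST array for each pup. The 4 mutant pups were Bcl11a flox/flox;Emx1 IRESCre/+ and the 4 control pups were Bcl11a flox/+;Emx1 IRESCre/+. All 8 pups therefore carried Cre recombinase from the Emx1 locus, which acts in the progenitors that give rise to cortical excitatory neurons and many glia, and the controls carried 1 floxed allele of Bcl11a, so loss of both alleles was set against loss of 1. Interneurons, vessels and microglia arise outside that lineage and keep Bcl11a unrecombined by Cre in both groups. The comparison asks which genes depend on Bcl11a, a zinc finger transcription factor, in these layers.

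As background, the chain is started on a linker sugar by Extl3 and elongated by the Ext1 and Ext2 polymerase. Ndst enzymes then swap acetyl for sulfate groups on glucosamine, an epimerase reshapes the neighbouring sugar, and sulfates are added at the 2-O, 6-O and 3-O positions. The resulting pattern governs which proteins the chain holds, among them fibroblast growth factors, Wnts, pleiotrophin and the Slit ligands with their Robo receptors, and in developing cortex these chains take part in axon guidance and synapse formation.

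Values are the deposited log2 intensities, and differences are mutant minus control with the standard error (SE) of the linear model fitted across all genes with limma. A gene is said to have risen or fallen where its Benjamini-Hochberg adjusted p over all 19938 genes was under 0.05. Array medians lay between 4.83 and 4.91. Bcl11a read 8.56, 8.85, 8.37 and 8.75 in the mutants, against 10.59, 10.52, 10.34 and 10.34 in the controls, a log2 difference of -1.82 (SE 0.10, limma adjusted p = 4.9e-07). The probe set's place relative to the floxed part was not analysed here. Control 1 stood apart from the other controls on principal component 2, at 16.6 against -10.9 to -4.84, with an array weight of 0.556, below the other 7. On principal component 1 the mutants lay at 9.91 to 14.5. Control 1 was the array farthest from them, at -19.1 against -11.4 to -7.61 in the other controls. High Xist marked 1 mutant and 2 controls, so both groups held pups of both sexes. A reading of 4.31 or below may be background, since Y-linked genes read up to that level in the arrays with high Xist. Nothing in the labels says whether the pups shared litters, and the precision rests on 4 arrays a group.

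Of the 31 heparan sulfate genes, 3 rose, 5 fell and 23 did not pass. These 8 genes are 25.8% of those measured, against 4.15% of all genes that passed in either direction, 2.36% that rose and 1.79% that fell. Because the genes were chosen with earlier results of these data known, this contrast cannot show that the set is unusual. The genes that rose were the 3-O-sulfotransferase Hs3st2, the sulfatase Sulf2 and the glypican Gpc6. Those that fell were the 3-O-sulfotransferases Hs3st1 and Hs3st5, the N-deacetylase/N-sulfotransferases Ndst3 and Ndst4, and the polymerase subunit Ext1. Mutant and control values did not overlap for 10 of the 31 genes (32.3%), against 9.25% of all genes, and 3 of these 10 lay higher in the mutants and 7 lower. The median log2 difference of the 31 genes was -0.09 and their median absolute difference 0.17, against 0.02 and 0.067 for all genes. The all-gene figures include many dim genes. Both group means were at or below 4.31 for 6121 of the 19938 genes, but for 3 of the 31. Without the dimmest 50% of genes, 8 of the 22 heparan sulfate genes left passed, against 886 of 9969 genes. Of the 21 enzymes 7 changed, and of the 10 core proteins 1 changed. Mutant and control values did not overlap for 33.3% of the enzymes and 30% of the core proteins. The contrast between enzymes and core proteins was not tested.

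**Figure D1:**
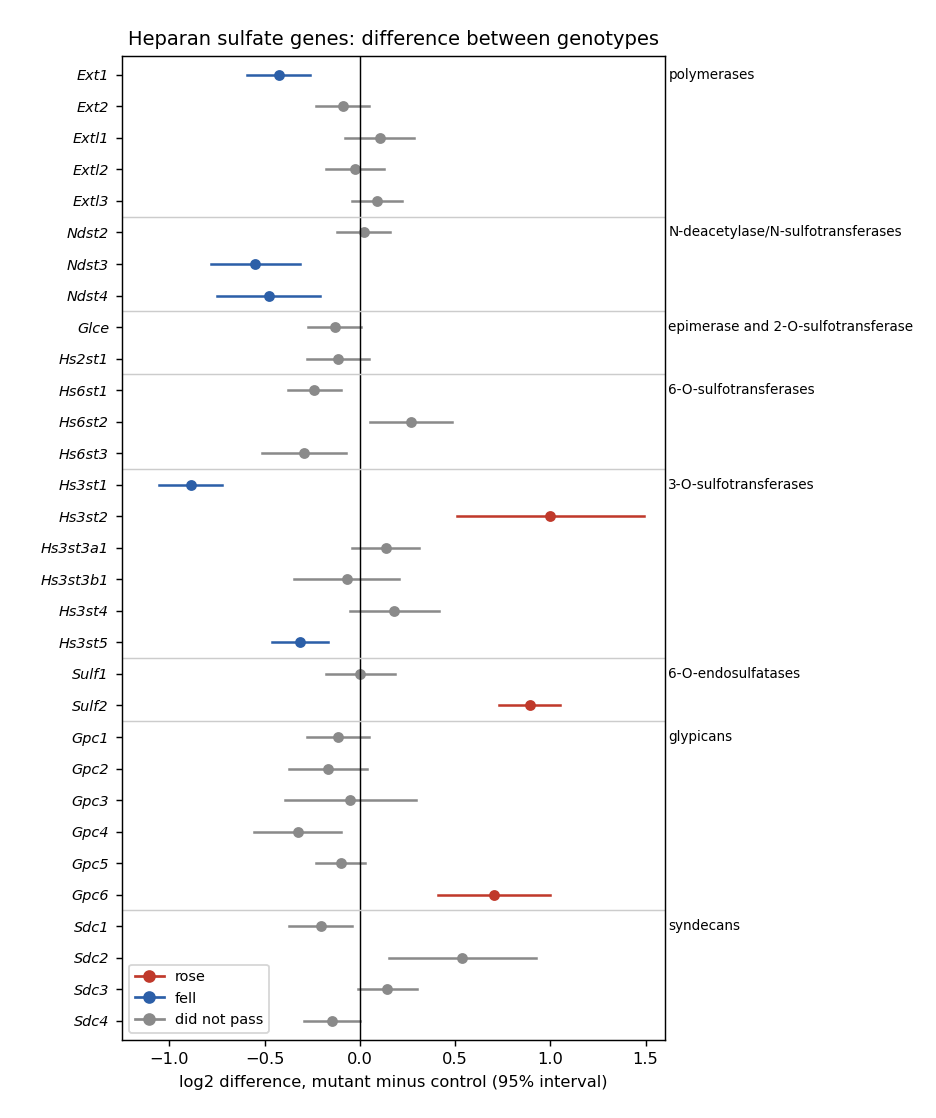
Log2 difference (mutant minus control, horizontal axis) of each of the 31 measured heparan sulfate genes, with its 95% interval, grouped by role down the page and coloured by whether it rose, fell or did not pass. Hs3st2 and Sulf2 lie farthest to the right at 1.00 and 0.89, and Hs3st1 lies farthest to the left at -0.89.

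Among the chain polymerases, Ext1 fell and the other 4 genes did not pass. Ext1, which encodes the subunit that carries most of the elongating activity of the polymerase, read 8.18, 8.14, 8.05 and 8.06 in the mutants, against 8.71, 8.57, 8.39 and 8.47 in the controls. Every mutant lay below every control, and the drop was 1.34-fold (log2 difference -0.43, SE 0.08, limma adjusted p = 0.00501). Its partner Ext2 averaged 7.35 ± 0.08 in mutants and 7.44 ± 0.04 in controls (SD, n = 4 each), with a log2 difference of -0.09 and a 95% interval of -0.23 to 0.05. Extl3, which starts the chain, had a difference of 0.09 (interval -0.04 to 0.22), and Extl2 one of -0.02 (interval -0.18 to 0.13). Extl1 had a difference of 0.10 (limma adjusted p = 0.678).

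The N-deacetylase/N-sulfotransferases carry out the first modification of the chain, on which the later sulfations depend. Ndst3 fell, with 5.68, 5.28, 5.81 and 5.57 in the mutants, against 6.02, 5.99, 6.28 and 6.26 in the controls. The groups did not overlap, and the drop was 1.46-fold with a 95% interval of 1.24 to 1.72 (log2 difference -0.55, SE 0.11, limma adjusted p = 0.00972). Ndst4 read 3.47, 3.35, 3.46 and 3.61 in the mutants, against 3.55, 3.93, 4.28 and 4.04 in the controls. It passed the test only just (log2 difference -0.48, SE 0.12, limma adjusted p = 0.0490), mutant 4 lay above control 1, and all 8 readings were at or below the level that may be background, so no fold is given. Ndst4 no longer passed when 1 array was left out, unless that array was control 1 (adjusted p from 0.0714 to 0.161). Ndst2 averaged 5.01 ± 0.04 in mutants and 4.99 ± 0.08 in controls (SD, n = 4 each), a difference of 0.02.

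The next steps of modification did not pass. Glce, the epimerase that turns glucuronic into iduronic acid, had a log2 difference of -0.13 (interval -0.27 to 0.01), and Hs2st1, the 2-O-sulfotransferase that acts on iduronic acid, one of -0.11 (interval -0.28 to 0.05). The 6-O-sulfotransferases pointed in different directions. Hs6st1 read 8.32, 8.27, 8.35 and 8.44 in the mutants, against 8.55, 8.53, 8.66 and 8.598 in the controls. Every mutant lay below every control, and the difference of -0.24 (SE 0.07) missed the threshold (limma adjusted p = 0.0627). It passed without the dimmest 50% of genes (limma adjusted p = 0.0363), with array weights (0.0497) and with trended, robust variances (0.0454). Hs6st3 had a difference of -0.29 and X-linked Hs6st2 one of 0.27 (limma adjusted p = 0.166 and 0.205). Hs6st2 read 9.30 in control 1 and 8.77 to 9.04 in the other controls, and without control 1 its difference was 0.37 and passed (limma adjusted p = 0.0218). Hs6st3 passed without mutant 1 (difference -0.39, limma adjusted p = 0.0328).

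The 3-O-sulfotransferases add the last and rarest sulfate, and members of this family changed in opposite directions. Of 6 measured, Hs3st2 rose, Hs3st1 and Hs3st5 fell, and 3 did not pass. The promoter windows of Hs3st2 and Hs3st1 are shown because these were the family members with the largest rise and the largest fall. Each runs from 250 bases before to 50 bases after the annotated start, 5′ to 3′ on the gene's strand, from RefSeq on GRCm38.p6: chr7:121392046-121392345, + strand, for Hs3st2 and chr5:39644582-39644881, - strand, for Hs3st1. Capitals mark the motif TGACCA or its reverse complement TGGTCA, the motif that human BCL11A is known to bind at the fetal globin genes.
Hs3st2: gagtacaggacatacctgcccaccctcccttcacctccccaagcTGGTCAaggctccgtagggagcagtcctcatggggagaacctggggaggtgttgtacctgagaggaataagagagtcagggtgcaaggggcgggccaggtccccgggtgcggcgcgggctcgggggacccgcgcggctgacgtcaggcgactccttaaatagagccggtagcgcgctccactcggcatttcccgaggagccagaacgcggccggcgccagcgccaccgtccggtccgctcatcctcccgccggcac
Hs3st1: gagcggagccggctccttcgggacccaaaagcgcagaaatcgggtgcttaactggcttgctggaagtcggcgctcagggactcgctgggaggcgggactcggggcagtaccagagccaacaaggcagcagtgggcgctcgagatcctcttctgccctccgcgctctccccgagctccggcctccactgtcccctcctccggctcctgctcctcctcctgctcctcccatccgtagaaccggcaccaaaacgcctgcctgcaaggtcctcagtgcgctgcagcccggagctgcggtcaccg
The Hs3st2 window held 1 match, on the opposite strand, whose first base lies 206 bases before the start. The Hs3st1 window held 0. Of 28 windows found for 24 of the 31 genes, 1 held the motif, against 13.6% of 32851 windows of the same length (both strands searched). The genes without a window include Ext1, Ndst4 and Gpc6, which changed. A match is a run of letters and no measurement of binding.

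Hs3st1, whose product makes the antithrombin-binding sites of heparan sulfate, had the largest fall. It read 5.89, 5.69, 5.68 and 5.57 in the mutants, against 6.68, 6.63, 6.59 and 6.49 in the controls. The groups lay far apart relative to their spread, and the drop was 1.85-fold with a 95% interval of 1.65 to 2.08 (log2 difference -0.89, SE 0.08, limma adjusted p = 1.87e-05). With any 1 array left out the adjusted p stayed at or below 1.97e-04, and without variance moderation it was 0.0122.

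Hs3st2, a family member known for its expression in brain, had the largest rise. It read 9.77, 9.55, 9.74 and 9.72 in the mutants, against 7.75, 8.96, 8.95 and 9.12 in the controls. Every mutant lay above every control, but control 1 was more than 1 log2 unit below the other controls. The rise was 2.00-fold with a wide 95% interval of 1.43 to 2.81 (log2 difference 1.00, SE 0.23, limma adjusted p = 0.0225). Without control 1 the difference was 0.68 and the adjusted p 1.38e-04. The call was lost without any 1 mutant (adjusted p from 0.0532 to 0.0717), with trended, robust variances (0.181), without moderation (0.270) and with the Xist value as a covariate (0.0561).

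Hs3st5 read 5.52, 5.51, 5.45 and 5.65 in the mutants, against 5.79, 5.77, 5.94 and 5.88 in the controls. The groups did not overlap, and the drop was 1.24-fold (log2 difference -0.31, SE 0.07, limma adjusted p = 0.0177). The call was lost without mutant 2 or 3 or control 3 or 4 (adjusted p from 0.0533 to 0.0628). Hs3st4 had a difference of 0.18 and Hs3st3b1 one of -0.07. Hs3st3a1, with a difference of 0.14, averaged 3.995 ± 0.10 in mutants and 3.86 ± 0.14 in controls (SD, n = 4 each), a level that may be background. Hs3st3a1 and Hs3st3b1 encode nearly identical catalytic domains, so their probe sets may not separate them fully.

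The 6-O-endosulfatases work outside the cell, where they remove 6-O-sulfate from finished chains. Sulf2 rose, with 8.69, 8.81, 8.83 and 8.88 in the mutants, against 7.79, 7.98, 8.03 and 7.84 in the controls. Every mutant lay well above every control, and the rise was 1.86-fold with a 95% interval of 1.66 to 2.07 (log2 difference 0.89, SE 0.07, limma adjusted p = 1.41e-05). Across the other settings and omissions the difference of Sulf2 ran from 0.85 to 0.93 and passed in each, with adjusted p up to 0.0108. Sulf1 averaged 3.83 ± 0.14 in mutants and 3.82 ± 0.11 in controls (SD, n = 4 each), a level that may be background, with a difference of 0.0033. For Sulf2, Hs3st1, Hs3st2, Hs3st5, Ext1, Ndst3 and Gpc6 alike the exact two-sided permutation p was 0.0286, the smallest that 4 arrays against 4 can give.

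**Figure D2:**
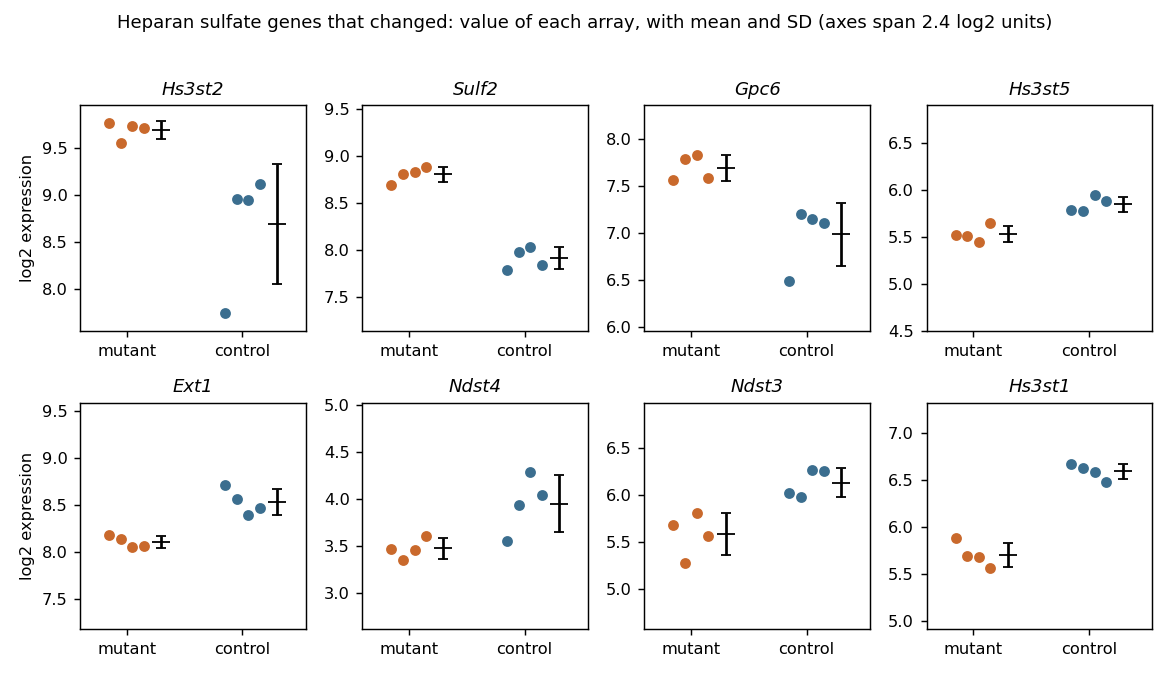
Log2 expression (vertical axis) of the 8 heparan sulfate genes that changed, with a point for each array, mutants at left and controls at right, and the mean with SD beside each group. Control 1, the leftmost control point in each panel, lies far below the other controls for Hs3st2 and Gpc6, and the groups overlap for Ndst4 alone.

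Glypicans are core proteins held to the membrane by a lipid anchor. Of 6 measured, Gpc6 rose and 5 did not pass. Gpc6, known in rodents as an astrocyte-secreted factor that promotes glutamatergic synapses, read 7.56, 7.79, 7.83 and 7.58 in the mutants, against 6.49, 7.202, 7.15 and 7.10 in the controls. The groups did not overlap, and control 1 was again the lowest control. The rise was 1.63-fold with a 95% interval of 1.33 to 2.00 (log2 difference 0.70, SE 0.14, limma adjusted p = 0.00819), and without control 1 the difference was 0.54 (adjusted p = 0.00154). Gpc5, which lies next to Gpc6 on chromosome 14 with 0 protein-coding genes between them in the GRCm38.p6 annotation, had a difference of -0.10 (interval -0.23 to 0.03).

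Gpc4, the other glypican known as a synapse-promoting astrocyte factor, read 4.29, 4.58, 4.74 and 4.897 in the mutants, against 4.93, 4.94, 5.01 and 4.93 in the controls. Every mutant lay below every control, mutant 4 only narrowly, and the difference of -0.32 (SE 0.11) did not pass (limma adjusted p = 0.134). It passed without mutant 4 (-0.41, limma adjusted p = 0.0432). Gpc1, Gpc2, a glypican of developing neurons, and Gpc3 had differences of -0.11, -0.17 and -0.05. Gpc3 and Gpc4 are neighbours on the X chromosome. Gpc3 read 4.52 in control 1 and 5.52 in control 4, a wide spread within 1 group.

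Syndecans are core proteins that span the membrane. None of the 4 passed in the limma fit on genotype alone, although 2 had an unadjusted p under 0.05. Sdc2, found in dendritic spines, read 6.12, 6.52, 6.96 and 6.63 in the mutants, against 5.50, 6.19, 6.30 and 6.08 in the controls. The groups overlapped, since mutant 1 lay below controls 2 and 3. Its difference of 0.54 (SE 0.18, limma adjusted p = 0.143) passed without mutant 1 (0.68, limma adjusted p = 0.0459). It also passed with the replicate number as a block (limma adjusted p = 0.00128), but the labels do not say that a number marks a pair. Sdc1 had a difference of -0.21 with no overlap between the groups (limma adjusted p = 0.205). Sdc3, a receptor of pleiotrophin, averaged 9.70 ± 0.01 in mutants and 9.56 ± 0.13 in controls (SD, n = 4 each), a difference of 0.14 (interval -0.01 to 0.30). Sdc4, a component of focal adhesions, had a difference of -0.15 (interval -0.29 to 0.00092).

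**Figure D3:**
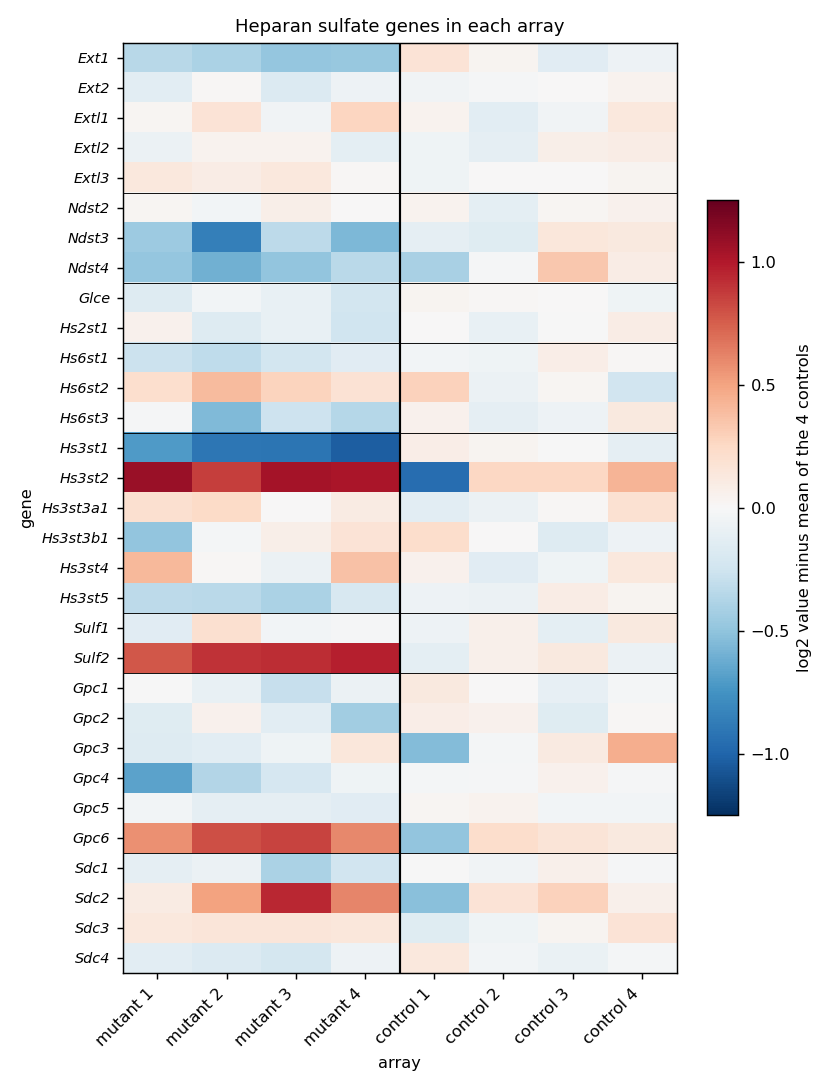
Each of the 31 heparan sulfate genes (rows, ordered by role) in each array (columns, mutants at left), coloured by its log2 value minus the mean of the 4 controls. Sulf2 is high and Hs3st1 low in all 4 mutants, and control 1 differs from the other controls at Hs3st2, Gpc6, Sdc2 and Gpc3.

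Control 1 was the lowest of the 4 controls for 11 of the 31 genes and the highest for 8, and control 2 was the lowest for 10 and the highest for 2. These counts are ranks and leave out the size of the gaps. Among the genes that changed, control 1 was the lowest control for Hs3st2, Sulf2, Gpc6 and Ndst4. For Ext1 and Hs3st1 it was the highest. Of 6 deep-layer markers Ldb2 rose by 1.38 and 5 did not pass, with differences of 0.80 for Fezf2 and -0.02 to 0.18 for the others. The mean of the 6 markers ran from 6.97 to 7.29 in the mutants, against 6.51 to 6.77 in the controls. The lowest of these control means was that of control 1. There Ldb2, Bcl11b and Crym were the lowest of the controls, Fezf2 and Foxp2 were the highest, and Tle4 lay between. Ldb2 read 10.40 to 10.86 in the mutants, against 8.29 in control 1 and 9.58 to 9.74 in the other controls. Without control 1, 4 of the 31 genes rose and 5 fell.

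Markers of several cell classes moved with genotype in these arrays. Of 7 upper-layer markers 5 fell (Cux1, Cux2, Pou3f2, Pou3f3 and Mdga1), and their mean was 8.93 to 9.12 in mutants and 9.45 to 9.55 in controls. Of 6 excitatory neuron markers Neurod6 rose and Slc17a6 and Emx1 fell, and their mean was 8.95 to 9.01 in mutants and 8.88 to 9.08 in controls. Of 10 interneuron markers Dlx1 fell, and their mean was 6.76 to 6.84 in mutants and 6.92 to 7.05 in controls. Endothelial, pericyte and Cajal-Retzius means were also lower without overlap. The mean of the 7 endothelial markers was 6.62 to 6.82 in mutants and 6.84 to 6.94 in controls, and none of the 7 passed. Of 5 pericyte markers Abcc9 fell, and their mean was 5.90 to 5.97 in mutants and 6.02 to 6.10 in controls. Of 4 Cajal-Retzius markers Reln fell, and their mean was 5.51 to 5.67 in mutants and 5.68 to 6.002 in controls. Differences of single markers ran from -0.27 to 0.0028 in the endothelial class, from -0.32 to -0.055 in the pericyte class and from -0.57 to 0.12 in the Cajal-Retzius class. For 9 astrocyte and radial glia markers the means overlapped (7.29 to 7.51 in mutants, 7.36 to 7.55 in controls), as they did for oligodendrocyte precursors, microglia, meninges and striatum, and none of those markers changed. None of the upper-layer or excitatory markers was at a level that may be background. Both group means were at or below 4.31 for 2 of 6 microglial, 2 of 6 meningeal and 1 of 4 striatal markers. The part of these shifts in the heparan sulfate results was not tested, and in bulk tissue fewer cells of a type and less RNA per cell cannot be told apart.

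With dim genes included, the rest of the heparan sulfate pathway was called about as often as all genes. Of 32 other genes measured, for the linker, the sulfate and sugar supply, other core proteins, heparanases and lysosomal breakdown, 1 rose, 0 fell and 31 did not pass (3.12%, against 4.15% of all genes), with a median absolute difference of 0.061, against 0.067 for all genes. By limma 3 had an unadjusted p under 0.05. The riser was Gusb, the lysosomal beta-glucuronidase, with 5.49, 5.42, 5.33 and 5.27 in the mutants, against 5.18, 4.84, 4.897 and 4.99 in the controls. The groups did not overlap (log2 difference 0.40, SE 0.08, limma adjusted p = 0.0129). Without the dimmest 50% of genes Gusb was left out, and 1 of the 18 genes left passed, against 886 of 9969 genes. Xylt2, a xylosyltransferase that starts the linker, had a difference of 0.29 (limma adjusted p = 0.0610). The core proteins agrin, perlecan and collagen XVIII (Agrn, Hspg2 and Col18a1) had differences of 0.04, -0.07 and -0.01.

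Chondroitin sulfate, the other sulfated chain built on the same linker, had 23 genes measured, of which Chst15 rose, Vcan fell and 21 did not pass (8.70%, against 4.15% of all genes). Without the dimmest 50% of genes, 3 of the 17 left passed, against 886 of 9969 genes. Chst15, the sulfotransferase that makes the doubly sulfated E unit, read 8.39, 8.25, 8.28 and 8.29 in the mutants, against 7.43, 7.65, 7.58 and 7.64 in the controls. The groups lay far apart relative to their spread (log2 difference 0.73, SE 0.07, limma adjusted p = 4.12e-05). Vcan, the matrix core protein versican, read 8.73, 9.29, 9.27 and 8.97 in the mutants, against 9.83, 9.82, 9.997 and 10.18 in the controls, a 1.86-fold drop (log2 difference -0.89, SE 0.12, limma adjusted p = 6.68e-04).

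Of 30 proteins known to bind heparan sulfate or its core proteins, or to be their receptors, 5 rose, 3 fell and 22 did not pass (26.7%, against 4.15% of all genes in either direction, 2.36% that rose and 1.79% that fell). This list too was chosen with earlier results of these data known. Without the dimmest 50% of genes, 8 of 22 partners passed, against 886 of 9969 genes. Among ligands, Slit2 rose by 1.31, Wnt7b by 1.31 and Fgf18 by 0.55 (limma adjusted p = 5.6e-04, 0.00365 and 0.00379), while pleiotrophin (Ptn) fell by 0.47 (limma adjusted p = 0.00352). Among receptors, Robo1 rose by 0.92 and Fgfr1 by 0.34, while Robo2 fell by 0.35 and Ptprd, a receptor phosphatase, fell by 0.40 (limma adjusted p = 6.25e-04, 0.0095, 0.00695 and 0.0265). Slit2 read 8.06, 8.56, 8.39 and 8.37 in the mutants, against 6.38, 7.26, 7.28 and 7.23 in the controls, again with control 1 lowest. Control 1 was also the lowest control for Wnt7b (6.33, against 7.42 to 7.67 in the other controls) and for Robo1 (9.18, against 9.63 to 9.87). Without control 1 the difference of Slit2 was 1.09 and that of Robo1 0.78, and that of Wnt7b was smaller too. Wnt7b lost its call in 2 of 19 other settings and omissions (adjusted p up to 0.157). It passed with any 1 array left out (limma adjusted p up to 0.0195). The call of Ptprd was lost without mutant 2, 3 or 4 or control 2, 3 or 4 (limma adjusted p from 0.0592 to 0.0921). Lrrtm4 and Gpr158, synaptic partners of Gpc4, did not pass, with differences of -0.12 and 0.21.

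**Figure D4:**
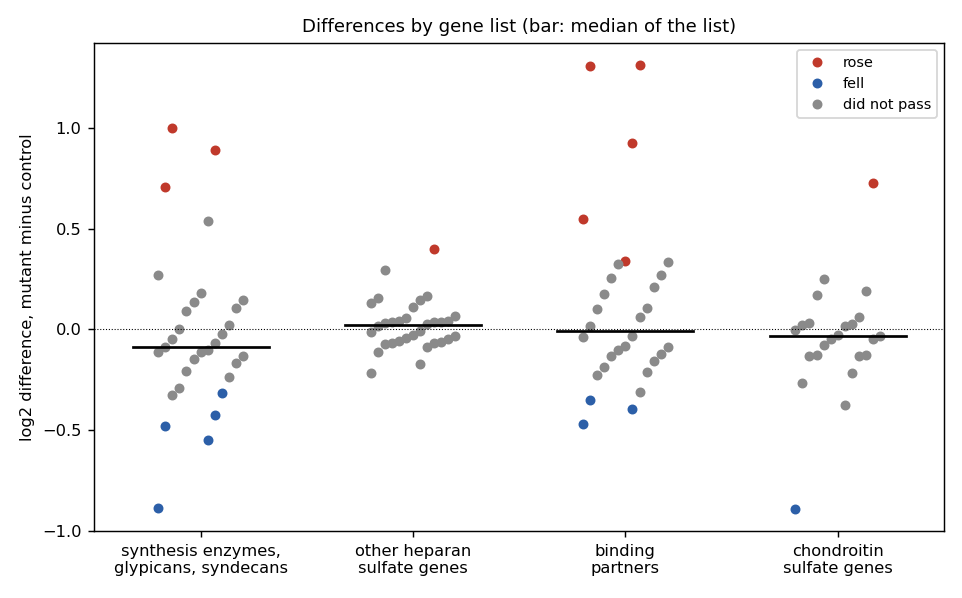
Log2 difference (mutant minus control, vertical axis) of each gene in 4 lists, coloured by whether it rose, fell or did not pass, with a bar at the list's median. Spread about 0 is wide for the synthesis enzymes with glypicans and syndecans and for the binding partners, and narrow for the other heparan sulfate genes, whose medians are -0.09, -0.01 and 0.02.

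The calls differed in how far they rested on single arrays. Sulf2, Hs3st1, Ext1, Ndst3 and Gpc6 passed with any 1 array left out, with adjusted p up to 1.46e-04, 1.97e-04, 0.0220, 0.0363 and 0.0362. Hs3st2, Hs3st5 and Ndst4 did not. Without variance moderation Sulf2 and Hs3st1 passed and the other 6 did not. Without mutant 2, and likewise without mutant 3, 2 of the 31 genes rose and 3 fell.

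**Figure D5:**
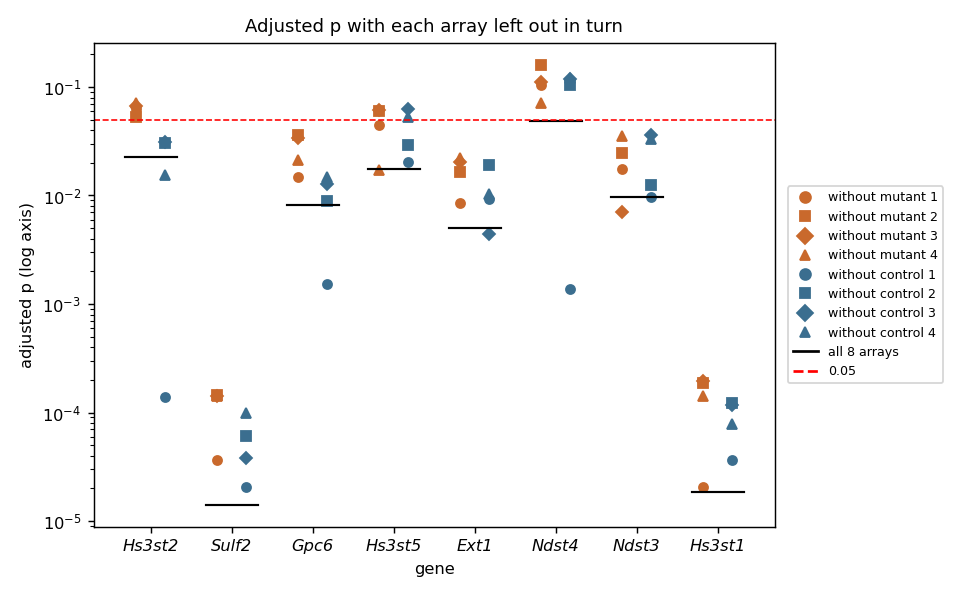
Limma adjusted p (vertical log axis) of the 8 heparan sulfate genes that changed, with each mutant (left of each position) or control (right) left out in turn, beside the value with all 8 arrays (black line) and the threshold of 0.05 (dashed). Sulf2 and Hs3st1 stay far below the threshold, while Hs3st2 crosses the threshold without any 1 mutant and falls to 1.38e-04 without control 1.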

How the data were processed

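The deposited table of log2 values holds 35556 probe sets on 8 arrays, 4 mutant and 4 control. Per the labels, the authors used BRB-ArrayTools on Affymetrix arrays. Background correction, normalization, summarisation and the log base were not given in the sources used here. Values from 2.03 to 13.8 were read as log2. With another base the tests would stay and the folds would differ. The platform annotation paired 21789 probe sets with 1 symbol, and the brightest of each gene was kept (19938 genes, no dim filter). The annotation names no build.

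Genotype was fitted with limma 3.58.1 in R 4.3.3 (two-sided moderated test, 6.91 prior degrees of freedom), with Benjamini-Hochberg adjustment over all genes. The procedure was tested on simulated data with independent noise in every gene and array, so that check did not cover an array that stands apart. The level of 4.31 is the highest of 3 Y-linked genes in the 3 arrays with Xist above 6. The genes and lists were chosen with earlier results of these data known. Heparan sulfate genes that changed or differed by at least 0.5 are given in full, and of other lists those that changed. Others were named after their values had been seen. No scan or hybridisation batch is given in the labels.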

Additional observations from a re-analysis of the deposited data

Results flagged for a closer look

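Of 86 groups of 4 arrays examined (43 genes, 2 genotypes), 5 had 1 array far from the other 3, and chance alone gives such a gap in about 1 in 20 groups. Control 1 was low for Hs3st2 (7.75, against 8.95 to 9.12 in the other controls), for Gpc6 (6.49, against 7.10 to 7.202) and for Slit2 (6.38, against 7.23 to 7.28). Control 2 was low for Ndst2 (4.87, against 5.02 to 5.05 in the other controls). Control 3 was high for Gpc4 (5.01, against 4.93 to 4.94 in the other controls), a gap of under 0.1.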

How the results depend on the processing

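Bcl11a fell in every setting tried. Without variance moderation 249 genes passed in all, 2 of the 31 heparan sulfate genes (Sulf2 and Hs3st1), 0 of the other heparan sulfate genes, 1 chondroitin sulfate gene and 1 binding partner. With an added minimum difference of 0.5 the counts were 372 genes, 5 of the 31, 0 other heparan sulfate genes and 4 binding partners. The other heparan sulfate genes numbered 2 without the dimmest 30% of genes, with array weights, at an adjusted p under 0.1, and with the replicate block, and 1 to 2 with single arrays left out. With single arrays left out, 5 to 9 of the 31 genes passed. Among genes that did not pass, Ndst2 turned to -0.00083 and Sulf1 to -0.013 after quantile normalization, to -0.0012 and -0.018 with arrays centred on their medians, and Sulf1 to -0.031 with the Xist covariate. With single arrays left out, Extl2 ran from -0.063 to 0.0069, Ndst2 from -0.021 to 0.038, Hs3st3b1 from -0.15 to 0.071, Sulf1 from -0.063 to 0.050 and Gpc3 from -0.23 to 0.10. The cause of these shifts was not tested. Same-numbered arrays correlated in their deviations by 0.11, 0.056, 0.30 and 0.15, and 6 of 8 arrays correlated best with their own number, a hint of pairing. The numbers were not taken as pairs because 1 of these correlations was under 0.1 and the labels do not say that a number marks a shared litter or batch. The replicate block gave 987 genes and 9 of the 31, with Sdc2 added (adjusted p = 0.00128). Genes near 4.31 are limited by signal over background.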
